A study of Mus musculus with 10 samples.

Results

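The genes described here are 35 genes of the cell's response to amino acid shortage and to unfolded protein in the endoplasmic reticulum (ER). They were taken by name and not by a cut on measured values, though with earlier results of these data known. Each was matched to 1 Ensembl gene of the 21556 in the count table. They fall into 16 genes of the amino acid and ATF4 arm and 19 genes of the ER arm. All 35 passed the filter on low counts. The cells were regulatory T cells (Tregs), the Foxp3-expressing CD4 T cells that restrain other T cells, from 10-week-old mice carrying a lymphangiogenic mouse melanoma. The mice labelled MHCIIdeltaProx-1 carry Prox1-Cre, which is active in lymphatic endothelial cells and there removes MHC class II; they are called MHCII-deleted. The mice labelled MHCIIfl/fl have the floxed MHC class II allele without Cre and are the controls. There were 2 libraries from tumors of MHCII-deleted mice, 3 from tumors of control mice, 2 from LN of MHCII-deleted mice and 3 from LN of control mice. Sorting was by red fluorescence (RFP), and the deletion is in lymphatic endothelium, not in the Tregs themselves. Prox1 is also active in some other cell types, such as hepatocytes, and the labels do not say whether the Cre is inducible. The labels do not say whether the libraries of a group are separate animals, so all p-values below measure the spread between libraries, which may be technical. They also do not say whether tumor and LN libraries come from the same mice.

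A shortage of amino acids is sensed by the kinase GCN2 and unfolded protein in the ER by the kinase PERK, the product of Eif2ak3. Both phosphorylate the initiation factor eIF2alpha, which lowers general translation while translation of the transcription factor ATF4 rises, so that ATF4 is controlled to a large extent at the protein level. ATF4 then raises transcription of genes for amino acid synthesis, amino acid import and tRNA charging. The ER has 2 other sensors, the nuclease IRE1 (Ern1), which splices Xbp1 mRNA, and the membrane-bound factor ATF6. XBP1 and ATF6 raise chaperones, folding enzymes and the machinery that returns misfolded protein to the cytosol.

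The arms have different DNA elements at their gene starts, which is why the following promoters are shown. RefSeq promoter windows (GRCm38.p6), 250 bases before to 50 bases after the annotated start, were found for 30 of the 35 members. They were searched on both strands for the C/EBP-ATF response element (CARE, TGATGNAA), the ER stress element (ERSE, CCAAT, 9 free bases, CCACG), ERSE-II (ATTGG, 1 free base, CCACG) and the XBP1 element UPRE (TGACGTGG). No motif overlaps another in these members. Promoters of 3 amino acid arm genes with a CARE and 2 ER chaperone genes with an ERSE are printed 5′ to 3′ on the gene's strand, with the element in capitals (written as its reverse complement where the match is on the other strand).
Asns, chr6:7693160-7693459, minus strand: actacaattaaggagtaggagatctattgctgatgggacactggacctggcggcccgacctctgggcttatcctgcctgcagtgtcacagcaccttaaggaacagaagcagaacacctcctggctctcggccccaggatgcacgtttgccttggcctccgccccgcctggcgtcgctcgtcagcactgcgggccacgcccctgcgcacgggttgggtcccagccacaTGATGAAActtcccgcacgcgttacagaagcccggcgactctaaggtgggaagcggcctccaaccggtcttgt
Trib3, chr2:152344011-152344310, minus strand: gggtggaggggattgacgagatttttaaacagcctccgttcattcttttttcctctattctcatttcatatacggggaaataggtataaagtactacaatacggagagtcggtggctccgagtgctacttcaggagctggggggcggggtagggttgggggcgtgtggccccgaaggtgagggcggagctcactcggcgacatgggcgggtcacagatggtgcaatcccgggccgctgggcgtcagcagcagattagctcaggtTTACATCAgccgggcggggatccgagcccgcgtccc
Chac1, chr2:119350992-119351291, plus strand: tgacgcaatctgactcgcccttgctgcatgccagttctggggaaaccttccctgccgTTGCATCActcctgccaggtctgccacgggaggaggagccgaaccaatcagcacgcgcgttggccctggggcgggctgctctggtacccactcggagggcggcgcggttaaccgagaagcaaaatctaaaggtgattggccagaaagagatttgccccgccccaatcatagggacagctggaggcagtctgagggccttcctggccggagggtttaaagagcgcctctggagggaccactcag
Hspa5, chr2:34771840-34772139, plus strand: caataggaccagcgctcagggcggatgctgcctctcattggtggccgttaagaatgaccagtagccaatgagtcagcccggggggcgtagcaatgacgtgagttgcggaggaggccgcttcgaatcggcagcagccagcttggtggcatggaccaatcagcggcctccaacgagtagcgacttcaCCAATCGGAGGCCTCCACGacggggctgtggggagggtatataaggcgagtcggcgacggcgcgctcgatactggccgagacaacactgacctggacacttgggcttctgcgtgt
Canx, chr11:50325624-50325923, minus strand: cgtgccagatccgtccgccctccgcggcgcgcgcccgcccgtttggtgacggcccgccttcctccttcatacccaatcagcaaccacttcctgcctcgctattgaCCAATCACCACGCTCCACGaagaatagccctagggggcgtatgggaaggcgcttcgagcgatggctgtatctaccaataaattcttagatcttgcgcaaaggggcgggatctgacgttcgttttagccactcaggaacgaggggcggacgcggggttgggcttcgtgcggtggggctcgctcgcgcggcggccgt

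A CARE was found in 4 of the 14 amino acid arm genes that have a window (Asns, Trib3, Chac1 and Slc7a11, the last with 2 matches) and in 1 of the 16 ER arm genes (Herpud1), against 4.51% of the 27025 genes with a window. The ERSE showed the opposite split. It was found in 7 of 16 ER arm genes and in 0 of 14 amino acid arm genes, against 0.137% of all genes with a window. Hsp90b1 has 2 matches, and Herpud1 has the only ERSE-II among the members (0.0444% of all genes). The UPRE was found in 0 members, against 0.714% of all genes. The elements were picked as those already known for these arms, so the split between the arms is no test of them. A match of letters is a description and no evidence that a factor binds there. The ERSE matches outside Hspa5 and Canx are shown in the element's own direction, with the constant ends in capitals and 5 flanking bases on each side, so that the varying 9 bases between them can be seen.
Hsp90b1, chr10:86705633-86705661, minus strand: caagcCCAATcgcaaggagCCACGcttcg
Hsp90b1, chr10:86705528-86705556, plus strand: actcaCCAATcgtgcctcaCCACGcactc
Pdia6, chr12:17266486-17266514, plus strand: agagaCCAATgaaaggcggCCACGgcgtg
Calr, chr8:84847070-84847098, plus strand: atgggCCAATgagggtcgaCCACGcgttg
Creld2, chr15:88819515-88819543, minus strand: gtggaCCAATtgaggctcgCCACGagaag
Syvn1, chr19:6046527-6046555, plus strand: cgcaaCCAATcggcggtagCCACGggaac
Herpud1 carries both kinds of element, its ERSE-II on the first line and its CARE on the second.
Herpud1, chr8:94386372-94386392, plus strand: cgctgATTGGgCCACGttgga
Herpud1, chr8:94386312-94386329, minus strand: cgggcTGATGcAAcccgc

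Library totals ran from 28539329 to 35736175 counts, with 12825 to 14703 genes detected. Foxp3 was present in every library, at 342 to 349 CPM (counts scaled to library size and normalised by the TMM method) in MHCII-deleted tumors, 646 to 817 CPM in control tumors, 580 to 654 CPM in MHCII-deleted LN and 644 to 747 CPM in control LN. The MHCII-deleted tumor libraries stand apart from the others. The summed level of 22 pan-T cell genes, 21 of them with counts, was 6821 to 8026 CPM in MHCII-deleted tumors and 15800 to 16500 CPM in control tumors. The sum of 14 melanoma genes was 19530 to 23720 CPM in MHCII-deleted tumors and 4893 to 9570 CPM in control tumors, with 0 of the 14 at a count of 0 in either group, and it was 16.36 to 34.69 CPM in LN libraries of both genotypes. The sum of 10 myeloid genes was 430.2 to 458.8 CPM in MHCII-deleted tumors and 117.2 to 225.7 CPM in control tumors. The sum of 8 B and plasma cell genes was 45.08 to 56.55 CPM in MHCII-deleted tumors and 25.68 to 47.33 CPM in control tumors. The sum of 10 stromal and endothelial genes ranged from 370.8 to 784.7 CPM in MHCII-deleted tumors and from 558.7 to 4278 CPM in control tumors. The sum of 5 lymphatic endothelial genes was 25.04 to 172.9 CPM in MHCII-deleted tumors and 12.98 to 16.86 CPM in control tumors, and that of Cd8a and Cd8b1 was 11.56 to 15.56 CPM in MHCII-deleted tumors and 27.24 to 42.15 CPM in control tumors. The part of these other cells' RNA in the tumor results below was not tested, and in bulk RNA fewer cells of a type and less RNA per cell cannot be told apart. A second measure splits the libraries differently. The GC index, the mean log2 CPM of 913 genes with a 100-base stretch of more than 85% GC in a transcript minus that of 1961 genes at 65% or below throughout, was 1.76 and 2.69 in MHCII-deleted tumors, 1.62 to 1.90 in control tumors, 2.65 and 2.60 in MHCII-deleted LN and 1.77 to 1.92 in control LN. In LN this index and the deletion cannot be told apart.

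**Figure D1:**
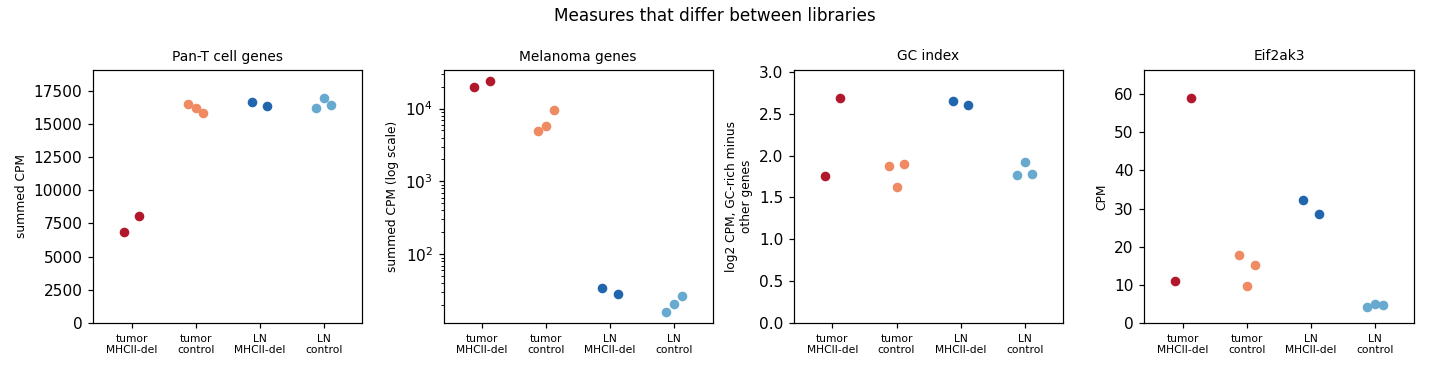
Each point is 1 library, and the columns are the 4 groups. From left to right the panels give summed CPM of pan-T cell genes, summed CPM of melanoma genes on a log scale, the GC index in log2 CPM, and the CPM of Eif2ak3. Pan-T cell genes are lowest and melanoma genes highest in the 2 MHCII-deleted tumor libraries, and Eif2ak3 is highest in the 3 libraries with a GC index above 2.

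In tumors, the deletion of MHC class II in lymphatic endothelium went with higher RNA of Asns, Ddit3, Trib3 and 3 serine and one-carbon enzymes. Atf4 RNA itself had a mean of 208 CPM in both groups under TMM scaling. Of the 16 genes of the amino acid arm, 7 were higher and 3 lower in libraries of MHCII-deleted than of control tumors, and 6 were not called. The pan-T cell and melanoma sums above differ between these libraries, and the part of other cells' RNA was not tested. Of the 19 ER arm genes, 2 were higher and 2 lower. Calls are edgeR quasi-likelihood tests with Benjamini-Hochberg adjusted p under 0.05 over all 13920 genes tested, of which 15.0% were called higher and 13.7% lower. The share called higher was therefore 43.8% in the amino acid arm and 10.5% in the ER arm. The median log2 fold change was 0.57 in the amino acid arm and 0.06 in the ER arm, beside 0.10 over all genes tested.

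Asns, the enzyme that makes asparagine from aspartate and glutamine, changed most among the called members. It had 190 and 149 CPM in MHCII-deleted tumors, against 45.7, 38.9 and 60.0 CPM in control tumors, and 4.66 and 4.31 CPM in MHCII-deleted LN against 5.16, 4.21 and 3.48 CPM in control LN. Both MHCII-deleted tumor libraries lie above every control tumor library, and all LN libraries lie far below. The log2 fold change in tumor was 1.81 ± 0.21 (SE, adjusted p = 0.00039).

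Atf4 had 201 and 216 CPM in MHCII-deleted tumors and 212, 187 and 226 CPM in control tumors. It had 79.0 and 85.4 CPM in MHCII-deleted LN and 76.6, 84.3 and 83.1 CPM in control LN. The genotypes overlap within each tissue, while the tissues are far apart. The log2 fold change for the deletion in tumor was 0.00 ± 0.11 under TMM scaling (SE, adjusted p = 0.996). When each library was scaled to its pan-T cell genes, Atf4 was at 1.13 (edgeR adjusted p = 3.68e-05), beside a median of 1.23 over all genes tested.

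Ddit3 and Trib3, both known to be induced by ATF4, were higher. Ddit3, which encodes the C/EBP-family factor CHOP, had 48.7 and 40.3 CPM in MHCII-deleted tumors and 25.3, 17.9 and 20.8 CPM in control tumors. It had 20 and 26.8 CPM in MHCII-deleted LN and 19.7, 16.3 and 23.1 CPM in control LN, so that only the MHCII-deleted tumor libraries stand above the rest. Its log2 fold change in tumor was 1.06 ± 0.22 (SE, adjusted p = 0.00687). Ddit3 shares 68 exon bases, 3.97% of its length, with Mars on the opposite strand, and the strand setting of the counting is not given in the sources used here.

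Trib3, a pseudokinase that binds CHOP and ATF4, had 60.6 and 38.2 CPM in MHCII-deleted tumors and 25.8, 14.3 and 9.77 CPM in control tumors. In LN it had 4.09 and 7.79 CPM in MHCII-deleted mice and 5.83, 3.13 and 4.18 CPM in control mice. Its values are spread widely within each tumor group, without overlap between them. The log2 fold change in tumor was 1.57 ± 0.44 (SE, adjusted p = 0.0241). The call was lost without MHCII-deleted tumor library 1 (1.20, adjusted p = 0.148), without control tumor library 2 (1.47, adjusted p = 0.0707) and without control tumor library 3 (1.30, adjusted p = 0.0621).

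Chac1, an enzyme that breaks down glutathione, and Slc7a11, the cystine importer, had the largest fitted differences but missed the threshold. Chac1 had 14.8 and 13 CPM in MHCII-deleted tumors and 5.86, 1.59 and 0.675 CPM in control tumors (log2 fold change 2.35 ± 0.94, SE, adjusted p = 0.0865). Without control tumor library 1, the highest control, it was 3.61 with an adjusted p of 0.0262. Slc7a11 had 3.4 and 3.69 CPM in MHCII-deleted tumors and 0.763, 0.363 and 0.107 CPM in control tumors (3.09 ± 1.25, SE, adjusted p = 0.0906). It passed without control LN library 2 (3.09, adjusted p = 0.0478), and DESeq2 called both genes higher, Chac1 at an adjusted p of 0.0399 and Slc7a11 at 0.0282. For both genes the tumor groups did not overlap.

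**Figure D2:**
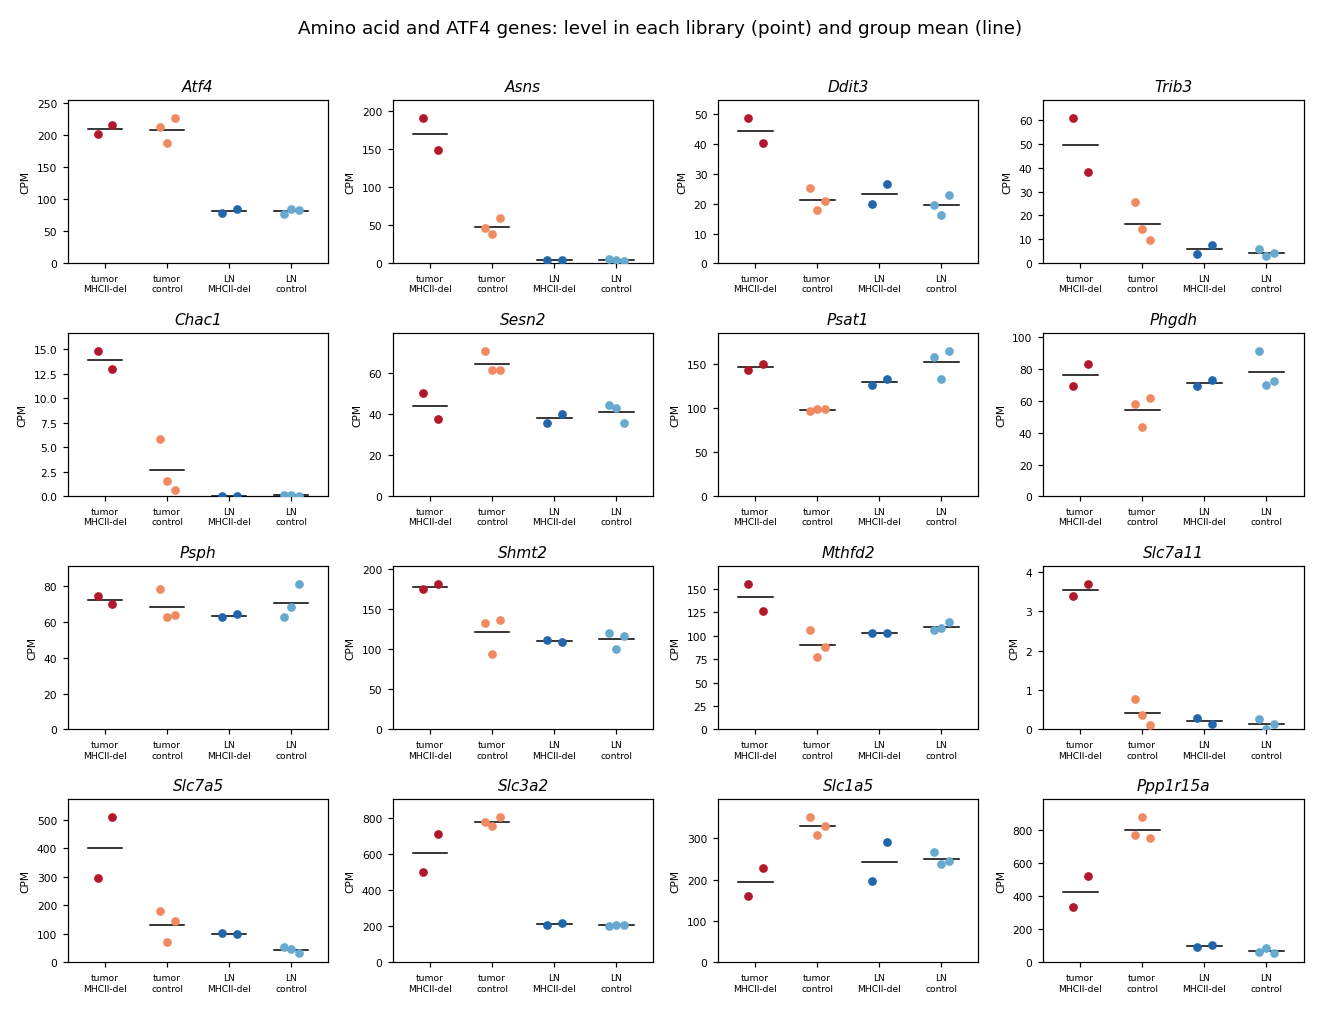
Each panel is 1 of the 16 genes of the amino acid and ATF4 arm, each point 1 library and each line a group mean; the y axis is CPM on a linear scale from 0, different in each panel. Asns, Ddit3, Trib3, Mthfd2 and Shmt2 are highest in the MHCII-deleted tumor libraries, whereas Atf4 overlaps between the tumor groups and Sesn2, Slc1a5 and Ppp1r15a are lower in MHCII-deleted than in control tumors on this TMM scale, though not after scaling to pan-T cell genes.

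Of the 5 serine and one-carbon enzymes, 3 were called higher, with smaller changes, beside 15.0% of all genes tested. Psat1, the aminotransferase of serine synthesis, had 144 and 150 CPM in MHCII-deleted tumors, against 97.4, 99.3 and 99.2 CPM in control tumors. It had 127 and 134 CPM in MHCII-deleted LN and 159, 133 and 165 CPM in control LN. The control tumor libraries are thus the low group, below both LN groups (log2 fold change in tumor 0.57 ± 0.11, SE, adjusted p = 0.00406). Shmt2, the mitochondrial enzyme that takes a one-carbon unit from serine, had 175 and 181 CPM in MHCII-deleted tumors, 133, 93.9 and 136 CPM in control tumors, 111 and 109 CPM in MHCII-deleted LN and 120, 100 and 117 CPM in control LN. The tumor groups did not overlap, and the log2 fold change was 0.56 ± 0.16 (SE, adjusted p = 0.0232), with the call lost without MHCII-deleted tumor library 1 (0.59, adjusted p = 0.0664) or 2 (0.54, adjusted p = 0.0794). Mthfd2, the next mitochondrial enzyme of that route, had 155 and 127 CPM in MHCII-deleted tumors, 106, 77.1 and 87.9 CPM in control tumors, 103 and 103 CPM in MHCII-deleted LN and 106, 108 and 115 CPM in control LN.

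For Mthfd2 the MHCII-deleted tumor libraries exceed all others, and the log2 fold change in tumor was 0.64 ± 0.14 (SE, adjusted p = 0.00841); without MHCII-deleted tumor library 1 it was 0.49 with an adjusted p of 0.0651. Phgdh, which carries out the entry step of serine synthesis, lay between 69.6 and 83.2 CPM in MHCII-deleted tumors and between 43.5 and 61.9 CPM in control tumors (0.49 ± 0.18, SE, adjusted p = 0.0616). It missed the threshold in the edgeR fit to all libraries and passed it without control tumor library 3 (0.59, adjusted p = 0.0495). DESeq2 called Phgdh higher (0.52, adjusted p = 0.0313). Psph, the phosphatase of the last step, ranged from 70.2 to 74.5 CPM in MHCII-deleted tumors and from 62.5 to 78.5 CPM in control tumors, which overlap (0.08 ± 0.15, SE, adjusted p = 0.701).

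Of the amino acid importers, Slc7a5 was called higher and Slc1a5 lower under TMM scaling, with the Slc1a5 value positive under scaling to pan-T cell genes. Slc7a5, the light chain of the large neutral amino acid exchanger LAT1, had 295 and 509 CPM in MHCII-deleted tumors, 181, 72.4 and 144 CPM in control tumors, 104 and 98.8 CPM in MHCII-deleted LN and 54.3, 45.5 and 34.8 CPM in control LN. Its values lie above those of control mice in both tissues without overlap, and the log2 fold change in tumor was 1.60 ± 0.35 (SE, adjusted p = 0.00948). Its transcript reaches 82% GC in a 100-base stretch, and the libraries with the high GC index are its highest in each tissue. Without MHCII-deleted tumor library 2 the log2 fold change was 1.15 (adjusted p = 0.0563), and with a GC index term in the fit it was 1.12 (adjusted p = 0.0279).

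Its partner Slc3a2, the heavy chain, went the other way in value. It ranged from 500 to 713 CPM in MHCII-deleted tumors and from 758 to 805 CPM in control tumors (log2 fold change -0.36 ± 0.13, SE, adjusted p = 0.0619). Without MHCII-deleted tumor library 2 it was -0.64 with an adjusted p of 0.00215, and with a GC index term -0.60 (adjusted p = 0.00288). Slc1a5, the glutamine importer ASCT2, had 160 and 227 CPM in MHCII-deleted tumors, 350, 308 and 329 CPM in control tumors, 197 and 290 CPM in MHCII-deleted LN and 266, 237 and 244 CPM in control LN. It fell in tumor, without overlap, by 0.76 on the log2 scale (SE 0.18, adjusted p = 0.0129); without MHCII-deleted tumor library 1 the value was -0.53 (adjusted p = 0.0901).

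Ppp1r15a and Sesn2 were lower in MHCII-deleted tumors under TMM scaling, with positive values under scaling to pan-T cell genes. Ppp1r15a encodes GADD34, which directs a phosphatase to eIF2alpha and so ends the response. It had 334 and 521 CPM in MHCII-deleted tumors, against 769, 876 and 749 CPM in control tumors, and 95.2 and 104 CPM in MHCII-deleted LN against 65.3, 87.9 and 57.9 CPM in control LN. The deletion groups lie on opposite sides of their controls in the tissues, and the log2 fold change in tumor was -0.90 ± 0.21 (SE, adjusted p = 0.0114). Without MHCII-deleted tumor library 1 it was -0.62 (adjusted p = 0.0722). Sesn2, a leucine-binding inhibitor of mTORC1, had 50.2 and 37.5 CPM in MHCII-deleted tumors, 70.5, 61.4 and 61.5 CPM in control tumors, 35.5 and 40.2 CPM in MHCII-deleted LN and 44.3, 43.0 and 35.9 CPM in control LN. Its log2 fold change in tumor was -0.56 (SE 0.17, adjusted p = 0.0316), with the call lost without MHCII-deleted tumor library 2 (-0.36, adjusted p = 0.192), control tumor library 1 (-0.49, adjusted p = 0.0804) or control tumor library 2 (-0.59, adjusted p = 0.0506), and with a GC index term in the fit (-0.42, adjusted p = 0.123).

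**Figure D3:**
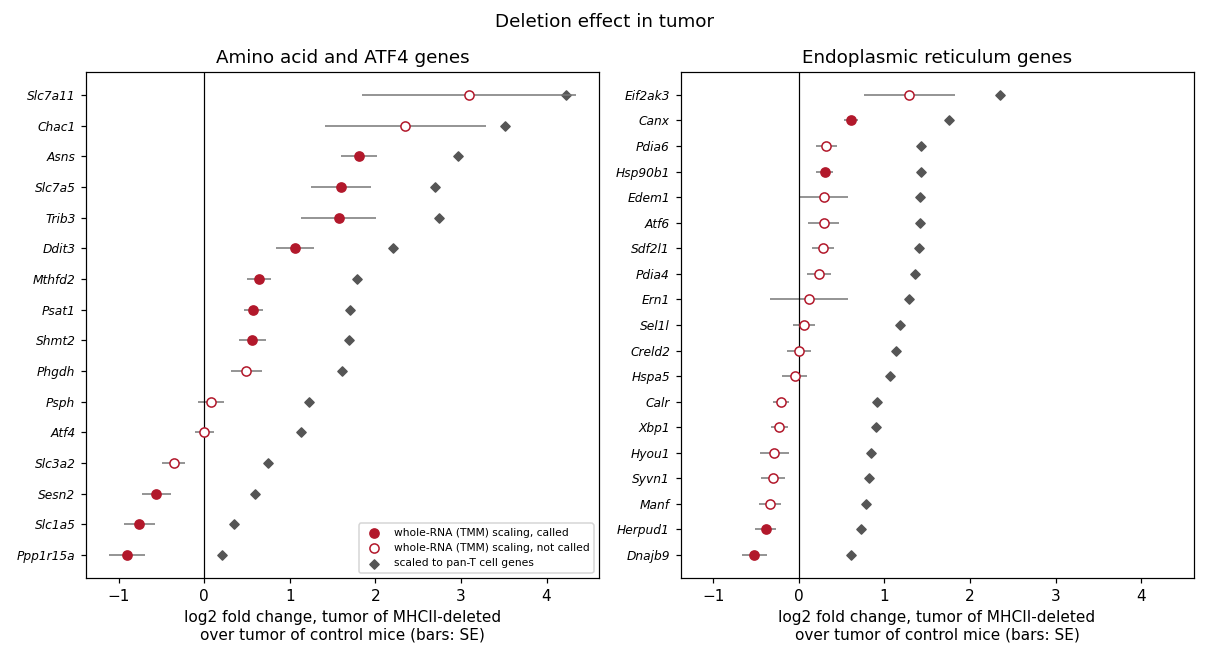
For each gene the circle gives the log2 fold change of MHCII-deleted over control tumors with its SE under TMM scaling (filled where called, open where not), and the grey diamond the value after scaling each library to its pan-T cell genes. Diamonds lie to the right of the circles for all 35 genes, as the median of all genes tested moved to 1.23 under pan-T scaling, against 0.10 under TMM, and Slc7a11, Chac1 and Asns have the highest circles of the amino acid arm while most ER genes lie near 0.

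The direction of the lower calls depends on what the libraries are scaled to. When each was scaled to its pan-T cell genes, the median log2 fold change of all genes in tumor was 1.23, with 9404 genes called higher and 46 lower. The median of the amino acid arm was then 1.70 and that of the ER arm 1.18. Rescaling moves all genes of a library by the same factor, so the gap between a list and all genes is kept by construction. In that scaling 33 of 35 members were called higher and 0 lower, and the lower calls turned to positive values, with Slc1a5 at 0.35 (adjusted p = 0.0884) and Ppp1r15a at 0.21 (adjusted p = 0.312). Asns was 2.96 there and Ddit3 2.20.

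In the ER arm 4 of 19 genes were called for the deletion in tumor, and the one with the lowest p was calnexin. The shares were 10.5% higher and 10.5% lower, beside 15.0% and 13.7% of all genes tested. The melanoma and pan-T cell sums above differ between the same libraries, and their part here was not tested. Canx, which encodes this membrane-bound chaperone of glycoproteins, had 755 and 749 CPM in MHCII-deleted tumors and 482, 520 and 474 CPM in control tumors. It had 461 and 453 CPM in MHCII-deleted LN and 464, 471 and 490 CPM in control LN. The MHCII-deleted tumor libraries stood apart from the other 3 groups, which were alike in range, and the log2 fold change in tumor was 0.61 ± 0.08 (SE, adjusted p = 0.000629). Its soluble relative Calr (calreticulin) ranged from 780 to 898 CPM in MHCII-deleted tumors and from 920 to 1010 CPM in control tumors (-0.21 ± 0.09, SE, adjusted p = 0.116).

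Hsp90b1, the ER member of the HSP90 family, had 768 and 814 CPM in MHCII-deleted tumors, 656, 690 and 587 CPM in control tumors, 575 and 511 CPM in MHCII-deleted LN and 560, 554 and 534 CPM in control LN. Its log2 fold change in tumor was 0.30 ± 0.10 (SE, adjusted p = 0.0419), a call that was lost when any of 9 of the 10 libraries was left out (0.23 to 0.34, adjusted p = 0.0525 to 0.158). Hspa5, which encodes BiP, the main ER chaperone that also holds the sensors inactive, had 1250 and 1800 CPM in MHCII-deleted tumors and 1350 to 1700 CPM in control tumors (-0.05 ± 0.15, SE, adjusted p = 0.831). The MHCII-deleted libraries bracket the controls. The protein disulfide isomerases Pdia4 and Pdia6 had log2 fold changes of 0.24 and 0.32 (adjusted p = 0.218 and 0.0687), and the chaperone cofactors Sdf2l1 and Hyou1 of 0.28 and -0.29 (adjusted p = 0.123 and 0.223), all not called. Pdia6 passed by DESeq2 (0.34, adjusted p = 0.029) and without MHCII-deleted tumor library 1 (0.49, adjusted p = 0.0132).

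The 2 lower calls of the ER arm were Dnajb9 and Herpud1 under TMM scaling, whereas under pan-T scaling both were higher, at 0.61 (adjusted p = 0.00434) for Dnajb9 and 0.73 (adjusted p = 0.000193) for Herpud1. DESeq2 also called both lower, Dnajb9 at -0.49 (adjusted p = 0.00959) and Herpud1 at -0.36 (adjusted p = 0.0268). Dnajb9, a co-chaperone of BiP that represses IRE1, had 36.4 and 41.8 CPM in MHCII-deleted tumors, 58.8, 60.3 and 49.3 CPM in control tumors, 16.6 and 15.3 CPM in MHCII-deleted LN and 18, 20.2 and 18.8 CPM in control LN. It fell by 0.52 on the log2 scale in tumor (SE 0.15, adjusted p = 0.0301), and missed the threshold without MHCII-deleted tumor library 1 (-0.43, adjusted p = 0.158), control tumor library 1 (-0.49, adjusted p = 0.0719) or control tumor library 2 (-0.47, adjusted p = 0.0766). Herpud1, a scaffold of ER-associated degradation, had 144 and 188 CPM in MHCII-deleted tumors, 230, 207 and 214 CPM in control tumors, 150 and 137 CPM in MHCII-deleted LN and 151, 157 and 162 CPM in control LN. Its fold change of -0.39 (log2, SE 0.12, adjusted p = 0.0409) was past the threshold in 1 of the 10 fits that leave out a library, the one without MHCII-deleted tumor library 2; in the other fits it was -0.21 to -0.42 (adjusted p = 0.0553 to 0.265).

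The other degradation genes were not called. Edem1, a lectin that sends glycoproteins to degradation, ranged from 301 to 374 CPM in MHCII-deleted tumors and from 209 to 400 CPM in control tumors. The ubiquitin ligase Syvn1 (HRD1) ranged from 48.5 to 61.9 CPM in MHCII-deleted tumors and from 63.7 to 75.3 CPM in control tumors, and its partner Sel1l from 145 to 199 CPM in MHCII-deleted tumors and from 156 to 170 CPM in control tumors. The secreted ER proteins Creld2 and Manf had log2 fold changes of 0.00 and -0.34 (adjusted p = 0.996 and 0.0865). Without MHCII-deleted tumor library 2, Syvn1 passed at -0.49 (adjusted p = 0.0475) and Manf at -0.51 (adjusted p = 0.0399), and without control tumor library 1 Edem1 passed at 0.66 (adjusted p = 0.0373).

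**Figure D4:**
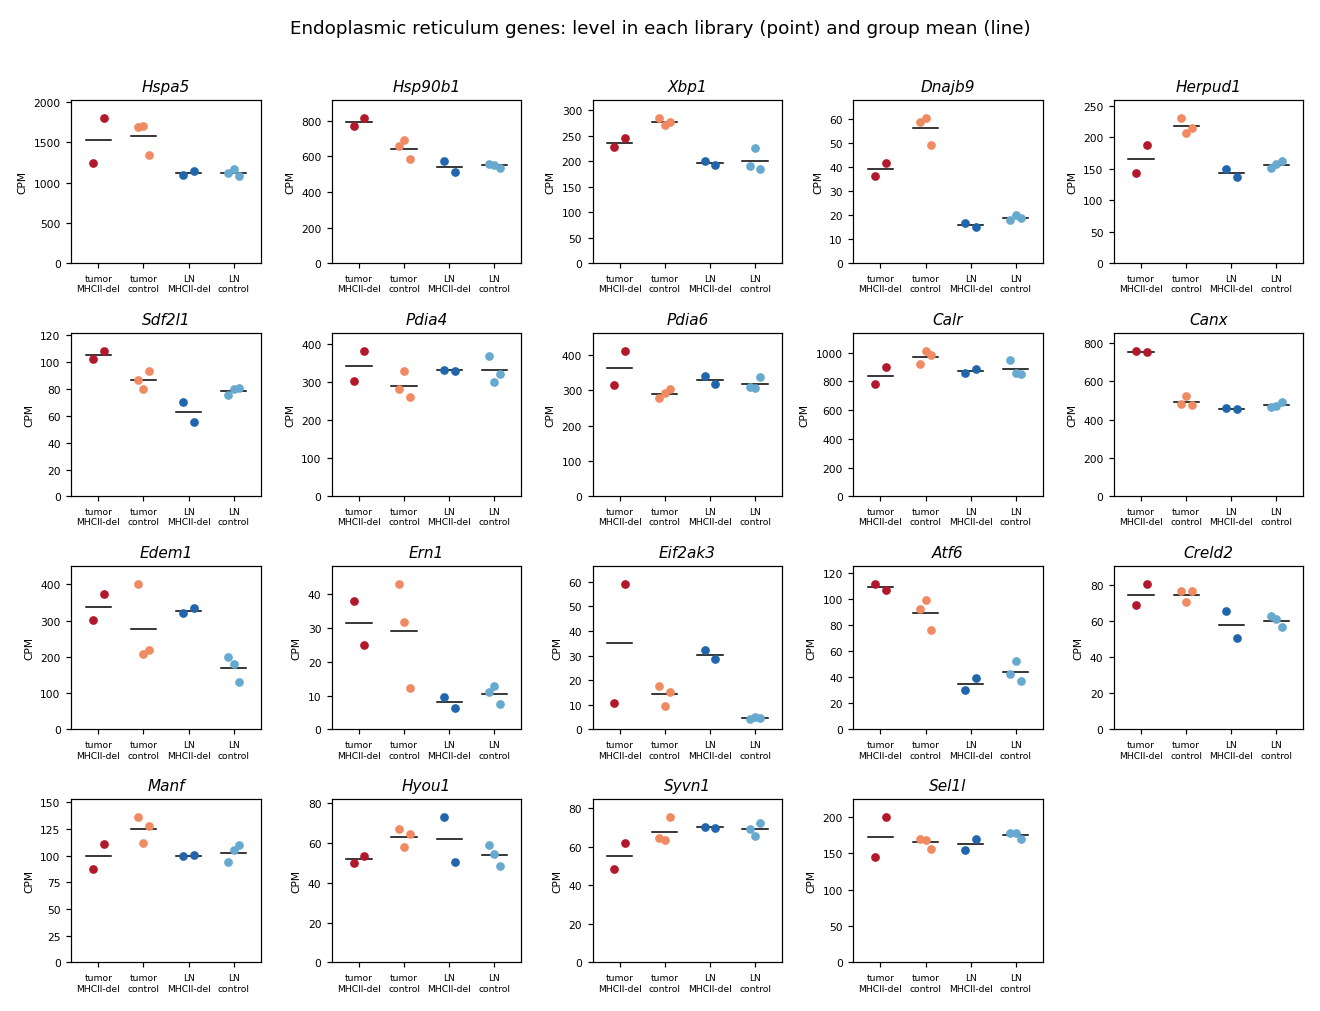
Each panel is 1 of the 19 genes of the ER arm, each point 1 library and each line a group mean; the y axis is CPM on a linear scale from 0. Canx stands higher in both MHCII-deleted tumor libraries than elsewhere, Dnajb9 and Atf6 are higher in tumor than in LN, and Eif2ak3 is high in 1 MHCII-deleted tumor library and both MHCII-deleted LN libraries.

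None of the sensor and factor genes Xbp1, Atf6, Ern1 and Eif2ak3 was called for the deletion in tumor by edgeR under TMM scaling. Xbp1 had 227 and 245 CPM in MHCII-deleted tumors, 284, 271 and 277 CPM in control tumors, 201 and 193 CPM in MHCII-deleted LN and 190, 225 and 185 CPM in control LN (tumor log2 fold change -0.23 ± 0.10, SE, adjusted p = 0.123). Counts per gene do not show whether Xbp1 mRNA was spliced. Atf6 had 111 and 107 CPM in MHCII-deleted tumors, 92.4, 98.9 and 75.8 CPM in control tumors, 30.1 and 39.4 CPM in MHCII-deleted LN and 42.3, 52.7 and 37.3 CPM in control LN (tumor 0.29 ± 0.18, SE, adjusted p = 0.253). Ern1 had 38.0 and 25.1 CPM in MHCII-deleted tumors, 42.9, 31.9 and 12.2 CPM in control tumors, 9.46 and 6.47 CPM in MHCII-deleted LN and 11.1, 12.7 and 7.45 CPM in control LN (tumor 0.12 ± 0.46, SE, adjusted p = 0.868). For Atf6 and Ern1 the tissue separates the libraries more than the genotype does.

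Eif2ak3, the PERK gene, followed another pattern. It had 10.9 and 59.0 CPM in MHCII-deleted tumors, 17.8, 9.64 and 15.3 CPM in control tumors, 32.2 and 28.5 CPM in MHCII-deleted LN and 4.28, 5.07 and 4.78 CPM in control LN. The 2 MHCII-deleted tumor libraries lie on either side of the controls, and the log2 fold change was 1.29 ± 0.53 (SE, adjusted p = 0.0963; DESeq2 1.32, adjusted p = 0.0438). Its transcript reaches 85% GC in a 100-base stretch, the highest of the members, and the 3 libraries with the high GC index are its 3 highest. With a GC index term in the fit the value was -0.24 (adjusted p = 0.48), and without MHCII-deleted tumor library 1 it was 2.05 (adjusted p = 0.00193).

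In LN, 0 of the 35 members were called for the deletion in either direction by edgeR, beside 1.07% of all genes called higher and 0.0359% lower. At an unadjusted p under 0.05 there were 5 members (14.3%), beside 9.32% of all genes tested, and DESeq2 called 3 members, all higher, beside 615 genes higher and 59 lower. These were Eif2ak3 (2.65, adjusted p = 0.000146), Slc7a5 (1.13, adjusted p = 0.025) and Edem1 (0.90, adjusted p = 0.0311). The edgeR values were 2.69 ± 0.55 for Eif2ak3 (SE, adjusted p = 0.0533), 1.17 ± 0.35 for Slc7a5 (SE, adjusted p = 0.173) and 0.94 ± 0.28 for Edem1 (SE, adjusted p = 0.155). In edgeR, Eif2ak3 passed without MHCII-deleted tumor library 1 (adjusted p = 0.000625), MHCII-deleted tumor library 2 (adjusted p = 0.000765) or control tumor library 1 (adjusted p = 0.0455), and Edem1 without control tumor library 1 (adjusted p = 0.0278). All 3 genes have a stretch of 81% GC or more. With a GC index term in the edgeR fit their LN values were 0.60 for Eif2ak3 (adjusted p = 0.705), 0.28 for Slc7a5 (adjusted p = 0.957) and 0.56 for Edem1 (adjusted p = 0.827). The index is high in both MHCII-deleted LN libraries and low in all control LN libraries, so this fit cannot tell it and the deletion apart. Of the other genes called higher in tumor, Trib3 was at 0.44 ± 0.45 in LN, Ddit3 at 0.25 ± 0.22, Asns at 0.07 ± 0.23, Hsp90b1 at -0.02 ± 0.10, Shmt2 at -0.03 ± 0.16, Canx at -0.06 ± 0.08, Mthfd2 at -0.09 ± 0.14 and Psat1 at -0.23 ± 0.11 (log2, SE), none of them called there.

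The deletion effects in tumor and LN were then compared by an interaction term. It was past the threshold for 5 of 35 members, 4 more positive in tumor and 1 more negative, beside 4.14% and 6.57% of all genes. Asns differed by 1.75 ± 0.31 on the log2 scale (SE, adjusted p = 0.0101), Psat1 by 0.80 ± 0.15 (SE, adjusted p = 0.0128), Mthfd2 by 0.74 ± 0.20 (SE, adjusted p = 0.0454) and Canx by 0.67 ± 0.11 (SE, adjusted p = 0.00851). Ppp1r15a differed by -1.40 ± 0.29 (SE, adjusted p = 0.0169). Mthfd2 kept its call in 2 of the 10 fits without a library, those without control tumor library 1 and without MHCII-deleted tumor library 2 (0.59 to 0.76, adjusted p = 0.0667 to 0.146 in the other fits). Psat1 missed it without MHCII-deleted LN library 1 (0.76, adjusted p = 0.0558), and Ppp1r15a without MHCII-deleted LN library 2 (-1.34, adjusted p = 0.0656) and under pan-T scaling (-0.30, adjusted p = 0.354). For Ddit3 (0.81, adjusted p = 0.134), Trib3 (1.13, adjusted p = 0.289), Slc7a5 (0.43, adjusted p = 0.649) and Shmt2 (0.59, adjusted p = 0.116), all higher in tumor, the tissues were not shown to differ.

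The comparison of tissues within a genotype called more members than the comparison of genotypes. In MHCII-deleted mice 16 of 35 members were higher in tumor than in LN and 0 lower, beside 24.3% and 20.1% of all genes. In control mice 15 were higher and 2 lower, beside 22.8% and 16.1%. In the amino acid arm the counts were 10 of 16 higher in MHCII-deleted mice and 8 higher and 2 lower in control mice, with median log2 fold changes of 1.13 in MHCII-deleted mice and 1.00 in control mice. In the ER arm 6 of 19 were higher in MHCII-deleted mice and 7 in control mice, with medians of 0.21 in MHCII-deleted mice and 0.29 in control mice, beside 0.07 and 0.08 over all genes in the same 2 comparisons. Each tissue comparison shares libraries with the deletion comparisons above, and the LN libraries hold almost no melanoma RNA.

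Atf4 was higher in tumor by 1.34 ± 0.12 in MHCII-deleted mice and by 1.35 ± 0.10 in control mice (log2, SE, adjusted p = 2.17e-05 and 6.09e-06). Ppp1r15a was higher in tumor by 2.10 ± 0.23 in MHCII-deleted mice and 3.50 ± 0.20 in control mice, and Asns by 5.24 ± 0.28 in MHCII-deleted mice and 3.49 ± 0.21 in control mice. The difference between these tissue effects is the same interaction as above. Slc3a2 was higher in tumor by 1.51 in MHCII-deleted mice and 1.92 in control mice, Slc7a5 by 1.99 in MHCII-deleted mice and 1.56 in control mice, and Trib3 by 3.06 in MHCII-deleted mice and 1.93 in control mice, all called. Sesn2 was at 0.21 in MHCII-deleted mice (adjusted p = 0.363) and higher in tumor by 0.65 in control mice (adjusted p = 0.00647). Chac1 had 893 counts in MHCII-deleted tumors and 2 in MHCII-deleted LN, a ratio of 457 after scaling to library size (exact 95% interval 126 to 3780, counting error only), and 259 counts in control tumors and 11 in control LN, a ratio of 25.8 (14.2 to 52.3).

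Of the 3 enzymes of serine synthesis, Psat1 and Phgdh were called lower in tumor in control mice, beside 16.1% of all genes. In MHCII-deleted mice 0 were called, beside 24.3% of all genes higher and 20.1% lower. Psph was at 0.19 in MHCII-deleted mice (adjusted p = 0.361) and -0.05 in control mice (adjusted p = 0.796). Psat1 was at 0.18 ± 0.12 in MHCII-deleted mice (SE, adjusted p = 0.257) and at -0.63 ± 0.10 in control mice (SE, adjusted p = 0.000827), a difference that the interaction term shows. Phgdh was at 0.11 in MHCII-deleted mice (adjusted p = 0.679) and -0.52 in control mice (adjusted p = 0.0271), where the difference missed the threshold (adjusted p = 0.141). In control mice Phgdh lost its call without control LN library 1 (-0.39, adjusted p = 0.109) or control tumor library 2 (-0.38, adjusted p = 0.0774). Ddit3, Shmt2 and Mthfd2 were called higher in tumor in MHCII-deleted mice (0.93, 0.70 and 0.46) and were not called in control mice (0.12, 0.10 and -0.28), and of these the difference passed for Mthfd2. In MHCII-deleted mice Ddit3 lost its call without MHCII-deleted LN library 1 (0.73, adjusted p = 0.108) or MHCII-deleted tumor library 1 (0.78, adjusted p = 0.0666). Mthfd2 lost it there without any of the 5 LN libraries (0.45 to 0.46, adjusted p = 0.0519 to 0.138) or MHCII-deleted tumor library 1 (0.30, adjusted p = 0.211), and in control mice it passed without control tumor library 1 (-0.41, adjusted p = 0.0272).

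Among the ER genes, Atf6, Dnajb9 and Ern1 were higher in tumor in both genotypes. Atf6 was at 1.64 ± 0.20 in MHCII-deleted mice and 1.01 ± 0.16 in control mice, Dnajb9 at 1.29 ± 0.17 in MHCII-deleted mice and 1.56 ± 0.14 in control mice, and Ern1 at 1.98 ± 0.52 in MHCII-deleted mice (adjusted p = 0.0116) and 1.48 ± 0.42 in control mice (adjusted p = 0.0193; all log2, SE). Ern1 lost its call in MHCII-deleted mice without MHCII-deleted LN library 2 (1.73, adjusted p = 0.0873) or MHCII-deleted tumor library 1 (1.65, adjusted p = 0.0551). In control mice it lost the call without control LN library 1 or 3 or control tumor library 1 or 2 (1.08 to 1.52, adjusted p = 0.05 to 0.0721). Hsp90b1, Sdf2l1 and Canx were called higher in tumor in MHCII-deleted mice (0.54, 0.75 and 0.72), and Hspa5, Xbp1, Herpud1 and Eif2ak3 in control mice (0.49, 0.47, 0.47 and 1.60). Among these genes the edgeR interaction was past the threshold for Canx only. The DESeq2 interaction also passed for Sdf2l1 (0.68, adjusted p = 0.00652) and Hsp90b1 (0.38, adjusted p = 0.046). In MHCII-deleted mice DESeq2 also called Xbp1 (0.37, adjusted p = 0.00941) and Hspa5 (0.55, adjusted p = 0.0068) higher in tumor. In control mice the Hspa5 call was lost without control LN library 3 or control tumor library 1 or 2 (0.44 to 0.46, adjusted p = 0.0527 to 0.0587). The Eif2ak3 call was lost there without any of the 3 control LN libraries or control tumor library 1 or 3 (1.4 to 1.65, adjusted p = 0.074 to 0.0946). In MHCII-deleted mice Hspa5 was 0.45 (adjusted p = 0.0501) and passed without MHCII-deleted tumor library 1 (0.68, adjusted p = 0.00488) or control tumor library 3 (0.45, adjusted p = 0.0371), and Herpud1 was 0.21 (adjusted p = 0.224) and passed without MHCII-deleted tumor library 1 (0.39, adjusted p = 0.0361). Eif2ak3 was 0.20 (adjusted p = 0.801) in MHCII-deleted mice, with -1.48 (adjusted p = 0.0136) without MHCII-deleted tumor library 2 and 0.96 (adjusted p = 0.0471) without MHCII-deleted tumor library 1. In control mice Hsp90b1 was 0.23 (adjusted p = 0.0563) and passed without control tumor library 3 (0.29, adjusted p = 0.027).

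**Figure D5:**
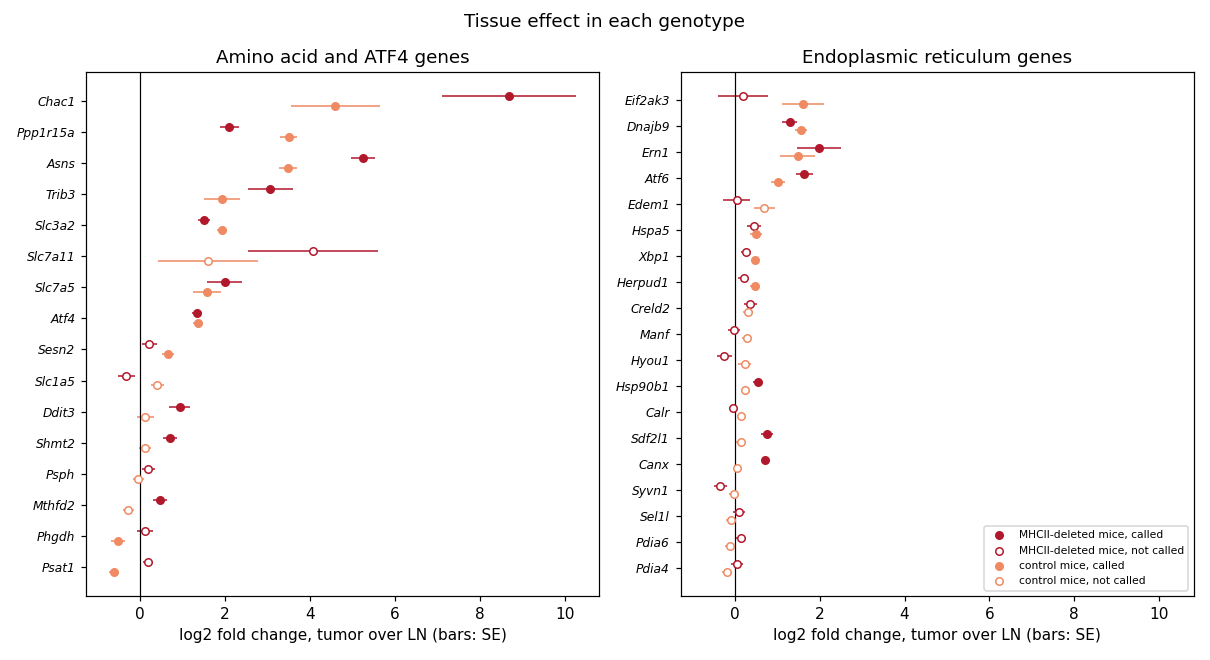
For each gene the dark red point gives the log2 fold change of tumor over LN in MHCII-deleted mice and the orange point that in control mice, with SE; filled points were called. Asns and Chac1 lie further right in MHCII-deleted mice, Ppp1r15a further right in control mice, and Atf4 is at 1.34 and 1.35.

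Levels per length differ widely among the members. In MHCII-deleted tumors the highest mean CPM per kilobase of exon were those of Hspa5 (361), Calr (291) and Hsp90b1 (196), and the lowest those of Slc7a11 (0.254), Ern1 (3.86) and Eif2ak3 (5.80). In control tumors these values were 374, 338 and 160 for the chaperones and 0.0295, 3.55 and 2.36 for the low genes. Ppp1r15a was at 145 in MHCII-deleted tumors and 272 in control tumors on that scale, above Atf4 at 88.3 in MHCII-deleted tumors and 88.2 in control tumors. Asns was at 61.9 in MHCII-deleted tumors and 17.6 in control tumors, and at 1.64 and 1.57 in MHCII-deleted and control LN.

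The other genes of these pathways were followed as lists, also chosen with earlier results of these data known. Of 18 cytosolic aminoacyl-tRNA synthetases, which charge tRNAs and include ATF4 targets, 11 were higher (61.1%) and 0 lower in MHCII-deleted than in control tumors. All genes tested were at 15.0% and 13.7%, and the median log2 fold change of the list was 0.44. Under scaling to pan-T cell genes the median was 1.58, beside 1.23 over all genes; the melanoma sums above differ between the same groups, and their part was not tested. Gars, the glycine enzyme, averaged 483 ± 40.9 CPM in MHCII-deleted tumors and 235 ± 23.3 CPM in control tumors (SD, n = 2 and 3; log2 fold change 1.04 ± 0.12, SE, edgeR adjusted p = 0.000345), and Aars, the alanine enzyme, averaged 436 ± 28.1 CPM in MHCII-deleted tumors and 203 ± 15.5 CPM in control tumors (1.10 ± 0.11, adjusted p = 0.000212). Iars and Sars, for isoleucine and serine, were higher by 0.89 and 0.63. In LN 0 of the 18 were called in either direction, beside 1.07% of all genes higher and 0.0359% lower. At an unadjusted p under 0.05 there were 0, beside 9.32% of all genes tested, and DESeq2 called 0. The interaction was past the threshold for 7 (38.9%), all more positive in tumor, beside 4.14% more positive and 6.57% more negative over all genes. The largest were Gars at 1.11 (adjusted p = 0.0058), Iars at 0.97, Aars at 0.91 and Rars at 0.75. Iars missed the threshold without MHCII-deleted LN library 2 (0.88, adjusted p = 0.0743), and Rars without control LN library 1 or 3, MHCII-deleted LN library 2 or MHCII-deleted tumor library 1 (0.66 to 0.76, adjusted p = 0.053 to 0.116). Between tissues 10 were higher in tumor (55.6%) and 0 lower in MHCII-deleted mice, beside 24.3% and 20.1% of all genes. Gars was at 1.56, Aars at 1.15, Sars at 0.68 and Cars at 0.65. In control mice 2 were higher (11.1%) and 5 lower (27.8%), beside 22.8% and 16.1% of all genes. Gars was there at 0.45, Iars at -0.60, Lars at -0.47 and Dars at -0.45. Cars lost its call in MHCII-deleted mice without MHCII-deleted LN library 2 (0.57, adjusted p = 0.0912) or MHCII-deleted tumor library 1 (0.60, adjusted p = 0.0526), and Dars in control mice under pan-T scaling (-0.42, adjusted p = 0.0513).

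Of 26 other ATF4 and amino acid genes, 8 were higher (30.8%) and 0 lower in MHCII-deleted tumors, beside 15.0% and 13.7% of all genes. The median log2 fold change of the list was 0.72. At an unadjusted p under 0.05 there were 10 (38.5%), beside 41.3% of all genes tested. Aldh1l2, a mitochondrial folate enzyme, had a log2 fold change of 3.27 ± 0.39 (SE, adjusted p = 0.000438), Gpt2, the mitochondrial alanine aminotransferase, of 2.28 ± 0.35 (SE, adjusted p = 0.0015), and Eif4ebp1, an inhibitor of cap-dependent translation, of 1.81 ± 0.24 (SE, adjusted p = 0.000798). Cebpb was called at 3.76 ± 1.15 (SE, adjusted p = 0.037) on the strength of 1 library, with 1.82 and 164 CPM in MHCII-deleted tumors and 4.29 to 8.49 CPM in control tumors; without MHCII-deleted tumor library 2, which has the high GC index, it was -1.76 (adjusted p = 0.112), and the call was lost in 9 of the 10 fits that leave out a library. In LN 0 were called by edgeR, beside 1.07% of all genes higher and 0.0359% lower, and 0 by DESeq2. At an unadjusted p under 0.05 there was 1 (3.85%), beside 9.32% of all genes tested. The interaction was called for 4 (15.4%), all more positive in tumor, beside 4.14% more positive and 6.57% more negative over all genes. These were Gpt2 (3.25), Eif4ebp1 (1.75), Slc38a1 (0.75) and Mthfd1l (0.72). The call was lost for Mthfd1l without control LN library 1 or 3, either MHCII-deleted LN library or MHCII-deleted tumor library 1 (0.66 to 0.78, adjusted p = 0.0502 to 0.0869). It was also lost for Eif4ebp1 without MHCII-deleted LN library 1 (1.76, adjusted p = 0.0547) or 2 (1.74, adjusted p = 0.064), and for Slc38a1 without MHCII-deleted LN library 2 (0.67, adjusted p = 0.0634). Between tissues 13 were higher in tumor (50%) and 0 lower in MHCII-deleted mice, beside 24.3% and 20.1% of all genes. In control mice 9 were higher (34.6%) and 2 lower (7.69%), beside 22.8% and 16.1% of all genes.

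Several of these genes had few or no counts in LN. The ratios and intervals below use counts summed over the libraries of a group. The intervals hold counting error only, not the spread between libraries. Aldh1l2 had 6850 counts in MHCII-deleted tumors and 3 in MHCII-deleted LN (ratio 2340, exact 95% interval 800 to 11300), and 1025 counts in control tumors and 1 in control LN (ratio 1120, interval 201 to 44400). Nupr1, a stress-induced chromatin protein, was at least 462-fold higher in tumor in MHCII-deleted mice, Gdf15, a secreted stress cytokine, at least 135-fold and Vldlr, a lipoprotein receptor, at least 109-fold, each with 0 counts in LN and set against 3 counts over the group. The Vldlr call was lost there without MHCII-deleted LN library 1 (adjusted p = 0.065) or 2 (adjusted p = 0.0604). In control mice Nupr1 had 480 counts in tumor and 10 in LN (ratio 52.6, interval 28.4 to 110), Gdf15 164 in tumor and 5 in LN (ratio 35.9, interval 15.1 to 112) and Vldlr 61 in tumor and 8 in LN (ratio 8.36, interval 3.98 to 20.2; not called, adjusted p = 0.14). Cth, the enzyme that makes cysteine from cystathionine, had 71 counts in control tumors and 1 in control LN (ratio 77.8, interval 13.5 to 3120). In MHCII-deleted mice it had 99 counts in tumor and 0 in LN, at least 33.8-fold when set against 3 counts. Atf3, a stress-induced transcription factor, had a log2 fold change of 8.25 ± 0.53 between tumor and LN in control mice (SE, adjusted p = 3.91e-06). Its value in MHCII-deleted mice is not given here, as genes were named by the largest called changes per comparison.

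Of 43 other ER genes, 7 were higher and 7 lower in MHCII-deleted tumors (16.3% each), near the 15.0% and 13.7% of all genes, with a median of -0.02. The higher ones include the oxidative folding genes Ero1l (1.32 ± 0.22, SE, adjusted p = 0.00234) and P4hb (0.94 ± 0.10, SE, adjusted p = 0.000294), the calcium-binding protein Calu (0.94 ± 0.12, SE, adjusted p = 0.000739) and Wfs1 (1.26 ± 0.40, SE, adjusted p = 0.0403), a membrane protein of the ER. Wfs1 missed the threshold in 7 of the 10 fits without a library (1.09 to 1.41, adjusted p = 0.0517 to 0.151). In LN 0 were called by edgeR, beside 1.07% of all genes higher and 0.0359% lower, and 1 by DESeq2. At an unadjusted p under 0.05 there was 1 (2.33%), beside 9.32% of all genes tested. The interaction was called for 5 more positive in tumor (11.6%) and 1 more negative (2.33%), beside 4.14% and 6.57% of all genes. Among the 5 were Ero1l (1.31), P4hb (1.08), Calu (1.06) and Ssr3 (0.80). The Ero1l call was lost in 8 of the 10 fits that leave out a library, all but those without control tumor library 2 and MHCII-deleted tumor library 2 (0.81 to 1.5, adjusted p = 0.0571 to 0.131). Between tissues 12 were higher in tumor (27.9%) and 9 lower (20.9%) in MHCII-deleted mice, beside 24.3% and 20.1% of all genes, and 9 were higher (20.9%) and 3 lower (6.98%) in control mice, beside 22.8% and 16.1%. In MHCII-deleted mice Pdia5 (5.14), Fkbp11 (4.38) and Ero1l (4.04) were higher in tumor and Derl3 lower (-3.51), and in control mice the same genes were at 2.95, 3.28, 2.73 and -5.27 (all log2 and called). Fkbp11 lost its call in MHCII-deleted mice without MHCII-deleted LN library 1 (4.59, adjusted p = 0.102) or 2 (4.19, adjusted p = 0.118), and in control mice without control LN library 1 or control tumor library 2 or 3 (2.87 to 3.37, adjusted p = 0.0551 to 0.0779). Derl3 lost its call in MHCII-deleted mice without MHCII-deleted LN library 2 (-3.21, adjusted p = 0.0643) or MHCII-deleted tumor library 1 (-3.19, adjusted p = 0.0741), and under pan-T scaling (-2.39, adjusted p = 0.0574).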

How the data were processed

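The authors deposited raw read counts per Ensembl gene for 10 libraries, with no normalization; the values are whole numbers. Per the submitters' processing notes, the build was GRCm38 and the tools were featureCounts 1.4.6, STAR 2.4 and CASAVA 1.8.2. Per the labels, cDNA was amplified with the SMARTer Ultra Low kit and sequenced as single reads of 50 bases. Reads shared by overlapping or near-identical genes can be lost or misplaced in such counts; 11 members share up to 10.4% of their exon bases with another annotated gene.

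Symbols and lengths came from GENCODE M21. Counts were analysed in R 4.3.3 with edgeR 4.0.16: filterByExpr (minimum count 10), TMM, and robust quasi-likelihood tests in a fit of all 10 libraries as 4 group means, with Benjamini-Hochberg adjustment over 13920 genes. The SE is the log2 fold change over the square root of F. DESeq2 1.42.0 was an alternative. The fit was tested on simulated counts. The members and lists were chosen with earlier results of these data known. All members are named; of the other lists, up to 4 called genes with the largest change per list and comparison. The alternatives are given in the closing section. Eif2ak1 was not analysed here. The GC index covariate was added after seeing the data.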

Additional observations from a re-analysis of the deposited data

Results flagged for a closer look

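For 5 members the effect of the deletion differed between tumor and LN by the interaction test, with edgeR adjusted p under 0.05 over all genes tested. The differences, tumor minus LN on the log2 scale, were 1.75 for Asns, 0.80 for Psat1, 0.74 for Mthfd2, 0.67 for Canx and -1.40 for Ppp1r15a. The effects they compare were 1.81 in tumor and 0.07 in LN for Asns, 0.57 in tumor and -0.23 in LN for Psat1, 0.64 in tumor and -0.09 in LN for Mthfd2, 0.61 in tumor and -0.06 in LN for Canx, and -0.90 in tumor and 0.50 in LN for Ppp1r15a. Asns and Canx kept call and direction under every alternative run. The summed pan-T cell and melanoma levels differ between the tumor groups and not to that extent between the LN groups, and their part in these differences was not tested.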

How the results depend on the processing

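Of the 14 members called for the deletion in tumor, 4 (Asns, Ddit3, Psat1 and Canx) kept call and direction under every alternative run; for the tissue effects 13 of 16 did in MHCII-deleted mice and 13 of 17 in control mice. Groups of 2 libraries limit all deletion calls.

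Scaling to pan-T cell genes gave, for the deletion in tumor, 9404 genes higher and 46 lower (33 and 0 members); for the deletion in LN, 379 genes and 1 member higher; for the tissue effect in MHCII-deleted mice, 8740 higher and 349 lower (34 members higher); and for the interaction, 6451 higher and 20 lower (27 and 0 members). It turned these deletion effects in tumor positive: Sesn2 0.59, Slc3a2 0.75, Slc1a5 0.35, Ppp1r15a 0.21, Hspa5 1.06, Xbp1 0.90, Dnajb9 0.61, Herpud1 0.73, Calr 0.91, Manf 0.78, Hyou1 0.84 and Syvn1 0.82. It did the same for the tissue effect in MHCII-deleted mice of Slc1a5 (0.81), Calr (1.10), Manf (1.13), Hyou1 (0.90) and Syvn1 (0.80), and for the interaction of Atf4 (1.11), Slc3a2 (0.69), Hspa5 (1.06), Xbp1 (0.91), Dnajb9 (0.85), Herpud1 (0.86), Calr (0.93), Manf (0.81) and Syvn1 (0.79). By construction it sets each library to the level of T cell RNA, which was lower in MHCII-deleted tumors.

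Fitting only the groups compared gave, for the deletion in tumor, 1142 genes higher, with 4 members higher and 2 lower, and, in LN, 786 genes higher, 20 lower and 3 members higher. DESeq2 called 14 members higher and 5 lower for the deletion in tumor. Its count over all genes is not given here for that comparison, so these member counts have no background beside them. It called 615 genes higher, 59 lower and 3 members higher in LN. For the interaction it called 1307 genes and 7 members higher, and 1 member lower. RLE size factors left 22 genes higher and 1 lower in LN, and the GC index covariate, which cannot be told apart from the deletion there, left 0 and 0. With that covariate Cebpb in tumor was -1.21, and leaving out 1 library gave it -1.76 (without MHCII-deleted tumor library 2) to 4.74 (without MHCII-deleted tumor library 1); the same libraries gave -1.48 to 0.96 for the tissue effect of Eif2ak3 in MHCII-deleted mice. The causes of these shifts were not tested.

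No same-numbered pair had a correlation over 0.1, the level set for treating the numbers as a pairing. Between tumor and LN of a genotype the 5 same-numbered pairs were at 0.02 to 0.05 and the 8 others at -0.04 to 0.00. These are correlations of deviations from group means, which sum to 0 within a group. In a group of 2 libraries the deviations mirror each other, so the pairs are not independent and cannot show whether the numbers are a pairing. Between genotypes of a tissue the 4 same-numbered pairs were at -0.15 to -0.05. With the replicate block 8 members were higher and 4 lower for the deletion in tumor (1524 and 1620 genes), 0 genes higher and 0 lower in LN, and 3 members higher and 1 lower for the interaction.

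Leaving out 1 library at a time gave 6 to 10 members higher and 1 to 7 lower for the deletion in tumor (1446 to 1973 and 1299 to 1758 genes), with the extremes of members at MHCII-deleted tumor libraries 1 and 2 and control tumor library 1. In LN it gave 0 to 2 members higher and 0 lower (0 to 598 and 0 to 13 genes). For the tissue effect it gave 14 to 18 members higher and 0 to 3 lower in MHCII-deleted mice (2340 to 3439 and 1953 to 2887 genes) and 12 to 16 higher and 1 to 3 lower in control mice (2546 to 3296 and 1605 to 2387 genes). For the interaction it gave 3 to 4 members higher and 0 to 4 lower (147 to 869 and 380 to 1412 genes).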
